A study of Mus musculus with 12 samples.

Results

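The genes described here encode the enzymes that add methyl groups to histone lysines and to arginines, and the enzymes that remove them from lysines. They were chosen by name, as protein-coding mouse genes whose symbols start with Kmt, Kdm, Setd, Nsd, Prmt, Ehmt, Suv39 or Suv420, which gave 52 of 21896 protein-coding genes. Of these, 33 were counted as writers (methyltransferases) and 18 as erasers (the Kdm demethylases). The remaining 1, Nsdhl, encodes a sterol dehydrogenase that shares only the letters of its symbol, and it was counted among the 52 but in neither class. No symbol started with Suv420, since those genes are now called Kmt5b and Kmt5c.

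The measured mark was H3K79me2, dimethylation of lysine 79 of histone H3, in mouse CD8 T cells activated with antibodies to CD3 and CD28 and grown for 8 days. The treated groups received EPZ-5676 or SGC-0946, both inhibitors of the H3K79 methyltransferase DOT1L, at a labelled dose of 10 mM (a doubtful unit, as such compounds are used at micromolar doses), and the control group received 0.1% DMSO. All groups came from male mice that were wild type for CreERT2 and for the floxed Dot1l allele and heterozygous for the OT-I T cell receptor transgene, so no group carried a deletion of Dot1l, and the transgene limits all of them to T cells largely of a single specificity. Each treatment had 2 immunoprecipitates and 2 inputs, 12 libraries in all, with yeast chromatin added as an external reference. The values come from 1 deposited list of broad peaks per treatment, called here the EPZ, SGC and DMSO lists, so the spread between replicates is not in any value, no test across samples could be made, and the depth of sequencing is unknown.

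DOT1L differs from nearly all other lysine methyltransferases in having no SET domain, the catalytic fold shared by the Kmt, Setd, Nsd, Ehmt and Suv39 enzymes. Its mark lies over the first part of transcribed genes, downstream of the start site. The enzymes described here act elsewhere on the histones: methylation of H3K4 marks promoters and enhancers, H3K36 methylation marks gene bodies, and H3K9 and H4K20 methylation are known for their part in silent chromatin. In CD8 T cells such enzymes are known for shaping the choice between effector and memory states. DOT1L itself is tied to this family in leukaemia, where fusions of human KMT2A with DOT1L partners carry H3K79 methylation to their target genes.

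Genes whose mm10 (GRCm38) interval shared 1 or more bases with a peak are called marked. Fold enrichment is the authors' ratio over background for a peak, and a gene is given the value of its highest peak. Fold enrichment ranks genes within a list and is not compared between lists. The EPZ list held 4443 peaks over 18.1 Mb, the SGC list 55 over 0.138 Mb and the DMSO list 12578 over 68.4 Mb. The markers matched the labelled cell type: all 10 T cell and CD8 genes checked, among them Cd3e, Cd8a and Lck, had a peak in the EPZ and the DMSO list. Of 25 markers of CD4 T, B, NK, myeloid and non-hematopoietic cells 0 were marked in EPZ and 1 in DMSO, the B cell gene Cd79a, through 0.254 kb of a peak that also covered another gene, while Cd4, Foxp3, Pax5, Ncr1, Csf1r and Lyz2 had none.

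Most of these enzyme genes had a called H3K79me2 peak in vehicle-treated cells, and somewhat more than every second marked gene also had one with EPZ-5676. Peaks were called on 25 of 52 members in EPZ (48.1%, exact 95% interval 34.0 to 62.4), against 15.9% of all protein-coding genes, and on 44 of 52 in DMSO (84.6%, 71.9 to 93.1), against 34.5% of all. Of the 44 members marked in DMSO, 25 had an EPZ peak (56.8%, 41.0 to 71.7), against 46.1% of all DMSO-marked genes, a share that lies inside that interval. No member had an EPZ peak without a DMSO peak, and each of the 40 EPZ peaks touching a member overlapped a DMSO peak. The same held for all 3485 EPZ-marked protein-coding genes, each of which had a DMSO peak, so this was not particular to the members. The intervals cover only the counting of genes.

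The members were long genes, with a median interval of 44.8 kb against 17.1 kb for all protein-coding genes, and a long gene offers more bases on which a peak can fall. Among all protein-coding genes at least as long as the median member, 39.5% had a DMSO peak and 18.5% an EPZ peak. DMSO-marked members had a median DMSO fold enrichment of 5.30 and 5.41 kb under DMSO peaks, against 4.47 and 4.10 kb over all DMSO-marked genes. In 8 of the 44 (18.2%, against 23.0% over the genome) the highest DMSO peak ran into a protein-coding neighbour, and these are named with each gene.

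**Figure D1:**
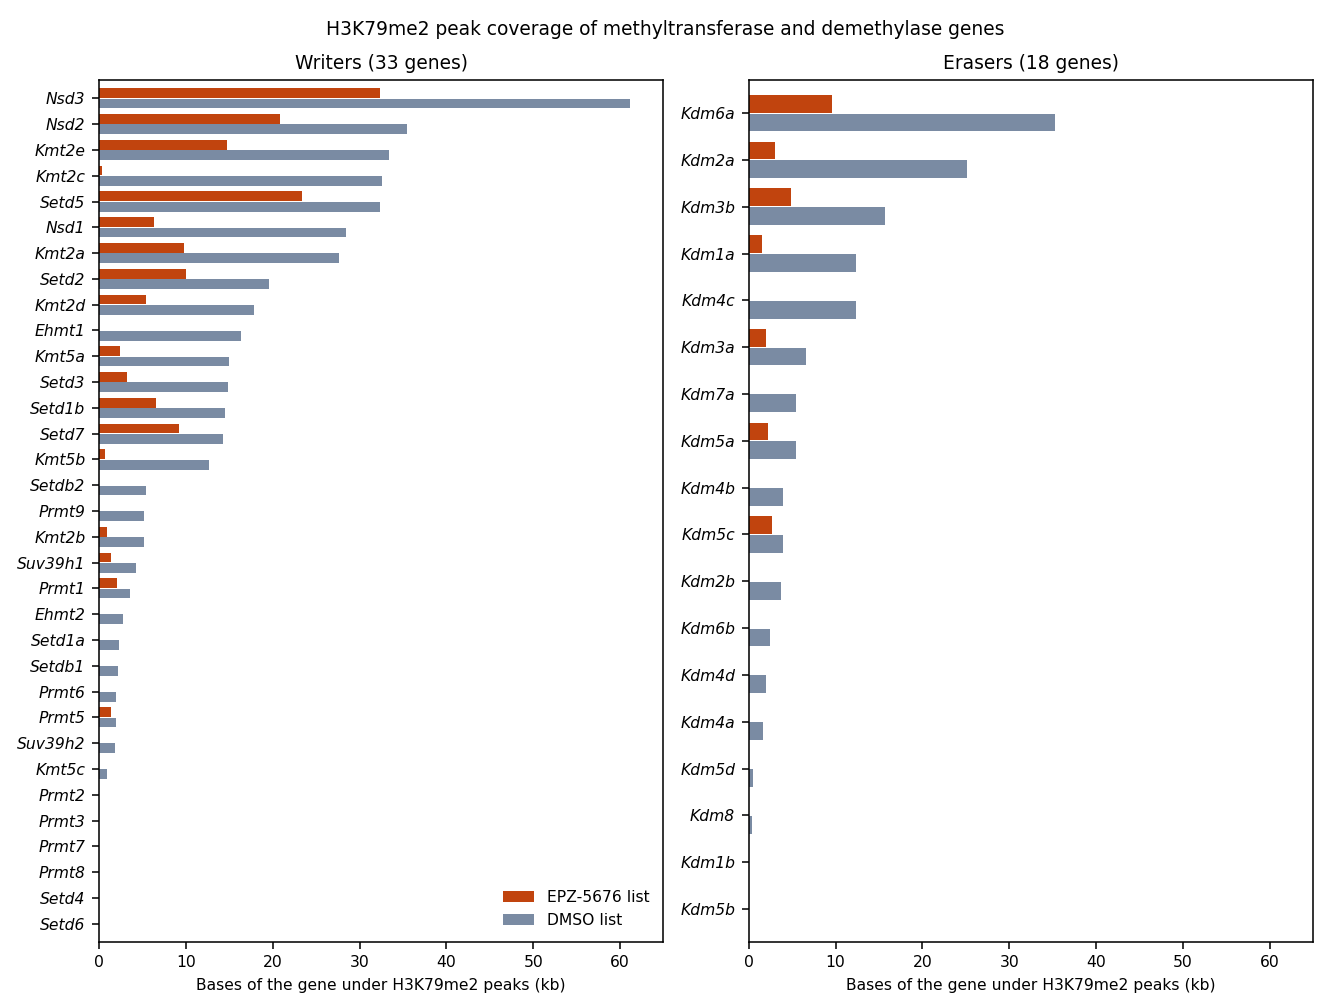
Bases (kb) of each gene that lay under H3K79me2 peaks in the EPZ-5676 list (red, upper bar) and the DMSO list (grey-blue, lower bar), for 33 writers and 18 erasers, each ordered by the DMSO value, 1 list per treatment. Every EPZ bar drawn is shorter than its DMSO bar, Nsd3 has the longest bars of both lists (32.4 and 61.2 kb), and Kmt2c, with 32.6 kb in DMSO, has an EPZ bar of only 0.306 kb.

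The promoters printed here belong to genes with and without an EPZ peak. They are those of Kmt2d and Kdm4d, the members of highest DMSO value with and without an EPZ peak, and the paralog pairs Suv39h1 and Suv39h2, and Kdm5c and Kdm5d, in which the first of each pair had an EPZ peak and the second none. Each is 250 bases before to 50 after an annotated start, from RefSeq on GRCm38, 5′ to 3′ on the gene's strand, with capitals on exact matches, on either strand, to the TATA box TATAAA, the CCAAT box CCAAT, the GC box GGGCGG, the E-box CACGTG or the ETS motif CCGGAAGT. The start lies inside the outer boundary of the gene interval in Kmt2d, Kdm4d, Kdm5c and Kdm5d.
Kmt2d: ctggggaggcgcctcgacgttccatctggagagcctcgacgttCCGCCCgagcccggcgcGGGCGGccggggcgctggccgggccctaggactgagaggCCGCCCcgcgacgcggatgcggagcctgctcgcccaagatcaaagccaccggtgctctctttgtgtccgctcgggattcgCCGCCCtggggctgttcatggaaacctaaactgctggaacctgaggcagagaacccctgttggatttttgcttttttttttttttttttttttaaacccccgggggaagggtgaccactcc
Kdm4d: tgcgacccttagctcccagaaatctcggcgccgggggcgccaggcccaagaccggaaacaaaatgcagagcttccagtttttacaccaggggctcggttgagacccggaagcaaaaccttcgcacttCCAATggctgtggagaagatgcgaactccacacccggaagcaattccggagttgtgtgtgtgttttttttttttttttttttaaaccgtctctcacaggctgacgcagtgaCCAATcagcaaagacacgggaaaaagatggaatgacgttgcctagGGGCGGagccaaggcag
Suv39h1: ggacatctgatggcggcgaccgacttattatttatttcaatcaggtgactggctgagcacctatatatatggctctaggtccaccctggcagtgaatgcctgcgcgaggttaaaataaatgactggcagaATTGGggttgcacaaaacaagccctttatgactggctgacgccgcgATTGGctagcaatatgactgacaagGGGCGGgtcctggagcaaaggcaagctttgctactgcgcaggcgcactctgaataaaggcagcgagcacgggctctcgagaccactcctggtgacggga
Suv39h2: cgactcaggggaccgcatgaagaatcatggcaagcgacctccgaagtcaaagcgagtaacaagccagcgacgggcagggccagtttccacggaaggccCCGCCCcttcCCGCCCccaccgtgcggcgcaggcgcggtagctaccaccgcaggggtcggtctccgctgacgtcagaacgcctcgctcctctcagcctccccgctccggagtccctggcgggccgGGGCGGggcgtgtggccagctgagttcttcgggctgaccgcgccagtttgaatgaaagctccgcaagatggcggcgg
Kdm5c: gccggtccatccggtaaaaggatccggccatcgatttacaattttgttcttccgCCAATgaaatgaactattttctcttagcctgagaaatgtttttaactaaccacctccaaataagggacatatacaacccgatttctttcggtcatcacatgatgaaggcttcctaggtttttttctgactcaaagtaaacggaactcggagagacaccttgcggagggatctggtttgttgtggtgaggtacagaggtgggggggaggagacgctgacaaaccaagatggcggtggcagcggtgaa
Kdm5d: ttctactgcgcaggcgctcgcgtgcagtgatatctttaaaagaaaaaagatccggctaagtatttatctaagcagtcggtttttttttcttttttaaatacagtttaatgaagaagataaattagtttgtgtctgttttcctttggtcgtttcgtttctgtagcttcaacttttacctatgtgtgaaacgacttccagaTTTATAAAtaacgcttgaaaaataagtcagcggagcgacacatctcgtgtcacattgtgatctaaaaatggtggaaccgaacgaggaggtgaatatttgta
The positions are chr15:98871156-98871455 on the minus strand for Kmt2d, chr9:14500433-14500732 minus for Kdm4d, chrX:8074711-8075010 minus for Suv39h1, chr2:3474937-3475236 minus for Suv39h2, chrX:152232977-152233276 plus for Kdm5c and chrY:897538-897837 plus for Kdm5d.

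All 300 bases at Kmt2d lay under the EPZ and the DMSO peak. At Kdm4d 0 bases lay under an EPZ peak and all 300 under the DMSO peak shared with Cwc15. At Kdm5c 0 bases lay under an EPZ peak and 97 under the DMSO peak, and at Suv39h1, Suv39h2 and Kdm5d 0 bases lay under either. In these 3 genes the DMSO peak began 0.558, 0.280 and 0.429 kb inside the 5′ boundary. Kmt2d held 4 GC boxes and Suv39h2 3, Suv39h1 and Kdm4d each held 2 CCAAT boxes and 1 GC box, Kdm5c held 1 CCAAT box, and Kdm5d held a TATA box matched on both strands in overlapping letters. Over the 54 promoters of members, 70.4% held a GC box, 42.6% a CCAAT box and 3.70% a TATA box, against 46.2%, 38.2% and 12.6% of 21262 protein-coding promoters. E-boxes stood in 11.1% of member promoters and 7.84% of all, and ETS motifs in 1.85% and 5.15%.

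Of the 6 COMPASS-type writers of H3K4 methylation 5 were marked in EPZ and all 6 in DMSO, against 15.9% and 34.5% of all protein-coding genes. All but Kmt2c lay above the median DMSO value of 4.47 over all DMSO-marked genes. At or above that median 82.0% of all genes had an EPZ peak. With a −log10 q of at least 5, EPZ peaks remained on 3 of the 6. These writers are the catalytic subunits of COMPASS-type complexes: Setd1a and Setd1b for bulk trimethylation at promoters, Kmt2a and Kmt2b at chosen promoters including Hox genes, and Kmt2c and Kmt2d for monomethylation at enhancers. Kmt2d, on chromosome 15 from 98831669 to 98874077, had the highest DMSO fold enrichment of all 52 members, 9.45, at percentile 95.7 of DMSO-marked genes, and its printed promoter lay wholly under peaks of both lists. EPZ peaks covered 5.37 kb of Kmt2d and DMSO peaks 17.8 kb. Its close paralog Kmt2c, on chromosome 5 from 25271795 to 25498855, had 0.306 kb under a single EPZ peak against 32.6 kb under 10 DMSO peaks, and its DMSO value was 3.66. The EPZ-covered bases thus came to 30.1% of the DMSO-covered ones in Kmt2d and to 0.938% in Kmt2c, the lowest share of any member marked in both lists.

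Kmt2a, on chromosome 9 from 44803355 to 44881352, carried 2 EPZ peaks over 9.79 kb and 1 DMSO peak of 6.62-fold over 27.6 kb. Kmt2b had 0.955 kb under an EPZ peak and 5.14 kb under a DMSO peak that ran on into Zbtb32. In Setd1b EPZ peaks covered 6.60 kb and DMSO peaks 14.5 kb, with a DMSO value of 7.45 that came from a 34.0 kb peak, of which 12.6 kb lay in Setd1b and which also covered Rhof. With every peak assigned to a single gene, that of largest overlap, Setd1b stood at 3.17. Setd1a was the H3K4 writer without an EPZ peak, although its single DMSO peak of 2.32 kb reached 5.95-fold, percentile 74.2 of marked genes. Setd1a, on chromosome 7 from 127777389 to 127800122, was among the 3 members of highest DMSO value without an EPZ peak, the others being Kdm4d (6.80) and Prmt6 (5.42).

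All 4 writers of H3K36 methylation were marked in both lists, and they held the widest coverage of any family in total. Nsd1, Nsd2 and Nsd3 write mono- and dimethylation of H3K36, and Setd2 writes trimethylation behind elongating RNA polymerase. Nsd3, on chromosome 8 from 25601601 to 25719667, had 32.4 kb under 4 EPZ peaks and 61.2 kb under 3 DMSO peaks, the most bases of all members in either list. Its EPZ value of 9.25 was the highest of the members in the EPZ list and its DMSO value of 8.80 the next after Kmt2d in the DMSO list. Nsd2 had 20.8 kb in EPZ and 35.5 kb in DMSO (7.58-fold, in a peak shared with the predicted gene Gm52782), Setd2 had 10.00 kb in EPZ and 19.5 kb in DMSO (6.87-fold), and Nsd1 had 6.36 kb in EPZ and 28.4 kb in DMSO (5.75-fold). The DMSO peak with most bases in Nsd1 had 4.58. The family total came to 69.6 kb in EPZ and 144.6 kb in DMSO.

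The 6 writers of H3K9 methylation were marked in 1 case in EPZ and in all 6 in DMSO. Suv39h1 and Suv39h2 write the H3K9 trimethylation of constitutive heterochromatin, Setdb1 represses retroelements, and Ehmt1 and Ehmt2 form the GLP-G9a dimer that writes H3K9 dimethylation. Their DMSO values ran from 2.83 in Setdb1 to 4.42 in Suv39h1, all below the median of 4.47 over all DMSO-marked genes. Below that median 10.2% of all genes had an EPZ peak and at or above it, where all 4 H3K36 writers lay, 82.0% did, so the counts of both families stood near those shares. Suv39h1, on chromosome X from 8061171 to 8074760, was the member with an EPZ peak, of 1.38 kb against 4.26 kb in DMSO. Its paralog Suv39h2, on chromosome 2 from 3455815 to 3474986, had none in EPZ and 1.89 kb in DMSO at 3.44-fold, in a peak that also touched Dclre1c. Ehmt1 had no EPZ peak in spite of 16.3 kb under 5 DMSO peaks (3.85-fold), and Ehmt2 (3.83-fold), Setdb1 and Setdb2 (4.07-fold, shared with Cab39l and Gm45935) had none either.

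Among the 3 writers of H4K20 methylation, Kmt5a, which places the monomethyl mark in the cell cycle, had 2.38 kb in EPZ and 14.9 kb in DMSO (5.82-fold). Kmt5b, which extends it to di- and trimethylation, had 0.698 kb in EPZ and 12.6 kb in DMSO (4.36-fold), a share of 5.52%. Kmt5c, which acts at heterochromatin, had no EPZ peak and 0.869 kb in DMSO at 2.75-fold, among the 5 lowest values of the members. All 3 were thus marked in DMSO and 2 of 3 in EPZ, against 34.5% and 15.9% of all protein-coding genes. The EPZ coverage of Kmt5a was close to the median of 2.475 kb over all EPZ-marked genes, and that of Kmt5b was below it. A family of 3 genes is too small to set apart.

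Of 6 genes counted by symbol as lysine writers, with other or uncertain targets, the 4 marked in DMSO also had EPZ peaks. Over all protein-coding genes 34.5% were marked in DMSO and 15.9% in EPZ. The DMSO values of these 4 genes, from 5.44 to 8.15, lay above the median of 4.47 over all DMSO-marked genes. At or above that median 82.0% of all genes had an EPZ peak, so the count stood near that share. Setd5, a SET protein whose own histone activity is disputed, had the largest share of covered bases of any member, 23.4 kb in EPZ against 32.4 kb in DMSO, or 72.1%. Kmt2e, a SET protein that reads H3K4 trimethylation, had 14.7 kb in EPZ and 33.4 kb in DMSO (7.84-fold, in a 54.3 kb peak that ran beyond the gene). Setd7, which stands outside those complexes and methylates many proteins besides histone H3, had 9.16 kb in EPZ and 14.3 kb in DMSO (8.15-fold). Setd3, known as the actin histidine methyltransferase, had 3.18 kb in EPZ and 14.9 kb in DMSO (5.44-fold, shared with Ccnk). Setd6, known for methylating the NF-kappaB subunit RelA, and Setd4 had no peak in any list.

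Arginine methyltransferases, the largest family here, had EPZ peaks on 2 of 8 genes (25%) and DMSO peaks on 4 of 8 (50%). These shares were not below the 15.9% and 34.5% of all protein-coding genes, although no other family had as many unmarked genes. Prmt1, which makes most asymmetric dimethylarginine, had 2.09 kb in EPZ and 3.62 kb in DMSO (5.97-fold). Prmt5, the main enzyme of symmetric dimethylation, had 1.35 kb in EPZ and 1.94 kb in DMSO (5.43-fold), a share of 69.6%. Prmt6 (5.42-fold over 1.98 kb) and Prmt9 (3.31-fold over 5.18 kb) had DMSO peaks only. Prmt2, Prmt3, Prmt7 and Prmt8, the last a membrane-bound enzyme of brain, had no peak in any list.

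**Figure D2:**
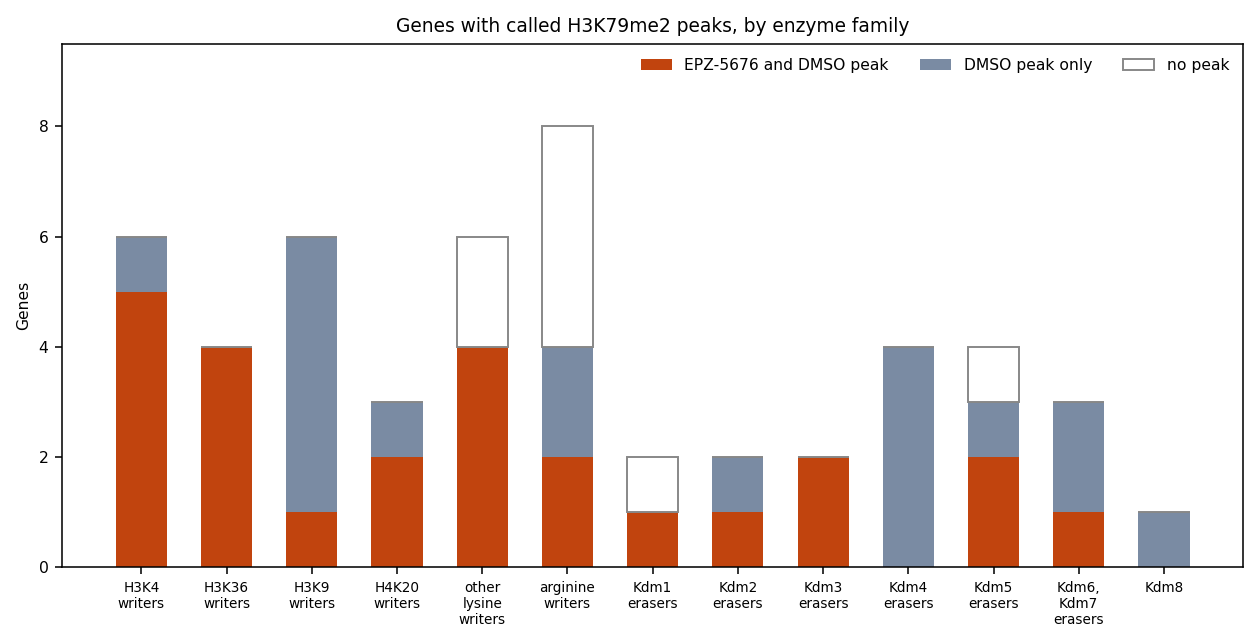
Number of genes in each enzyme family with peaks in both the EPZ-5676 and DMSO lists (red), in the DMSO list only (grey-blue) or in neither (white), with erasers grouped by symbol and Nsdhl left out. All 4 H3K36 writers and 5 of 6 COMPASS-type H3K4 writers have both, against 1 of 6 H3K9 writers and 0 of 4 Kdm4 erasers. Of all protein-coding genes marked in DMSO, 46.1% have both. That share is 82.0% at or above the all-gene median of DMSO fold and 10.2% below it, where all 6 H3K9 writers lie.

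Erasers were marked in 7 of 18 cases in EPZ and 16 of 18 in DMSO, against 15.9% and 34.5% of all protein-coding genes. Families of 1 to 4 erasers are too small to set apart, and their counts are given as a description. The Kdm4 genes, whose enzymes remove methyl groups from H3K9 and H3K36, had EPZ peaks in 0 of 4 cases and DMSO peaks in all 4. Kdm4a stood at 3.56-fold, Kdm4b at 3.35 and Kdm4c at 3.80 in DMSO, and the higher value of Kdm4d, 6.80, came from 0.348 kb of a 2.23 kb peak that it shared with Cwc15. The DMSO peak with most bases in Kdm4d itself had 2.98. Both Kdm3 genes, encoding erasers of H3K9 mono- and dimethylation, were marked in both lists: Kdm3a with 1.99 kb in EPZ and 6.59 kb in DMSO (4.63-fold), and Kdm3b with 4.86 kb in EPZ and 15.7 kb in DMSO (5.97-fold).

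The Kdm5 genes encode erasers of H3K4 trimethylation and included a pair on the sex chromosomes. Kdm5a, a partner of the retinoblastoma protein, had 2.18 kb in EPZ and 5.41 kb in DMSO, and its DMSO value of 7.97 was the highest of the erasers, in a peak that also touched Ccdc77. Kdm5c, on chromosome X from 152233198 to 152279102, had 2.68 kb in EPZ and 3.92 kb in DMSO (6.37-fold), a share of 68.5%. Its Y-linked homolog Kdm5d, from 897566 to 943813, had no EPZ peak and 0.505 kb in DMSO at 2.90-fold. Kdm5b had no peak in any list.

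Kdm6a, the X-linked eraser of H3K27 methylation also called UTX, had the widest eraser coverage, 9.57 kb under 2 EPZ peaks and 35.2 kb under 1 DMSO peak of 4.22-fold. Kdm6b, the other H3K27 eraser, had 2.39 kb in DMSO (3.61-fold) and no EPZ peak, and the same held for Kdm7a, an eraser of H3K9 and H3K27 dimethylation (5.42 kb, 3.13-fold). Kdm1a, the flavin-dependent LSD1, had 1.51 kb in EPZ and 12.4 kb in DMSO (5.22-fold), and its paralog Kdm1b had no peak. Kdm2a, a CpG-binding eraser of H3K36 dimethylation, had 3.02 kb in EPZ and 25.1 kb under 10 DMSO peaks. The highest of these 10 had 6.92-fold and the one with most bases in the gene 4.74. Kdm2b, which brings a Polycomb complex to CpG islands, had 3.74 kb in DMSO only (2.95-fold). Kdm8 stood lowest of all marked members, at 2.66-fold over 0.379 kb, and Nsdhl had 0.423 kb at 2.85-fold. Both of these had DMSO peaks only.

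Writers and erasers overlapped widely. Writers were marked in DMSO in 27 of 33 cases (81.8%, exact 95% interval 64.5 to 93.0) and erasers in 16 of 18 (88.9%, 65.3 to 98.6), a difference of -7.07 percentage points (95% interval -26.9 to 19.1). Of the genes marked in DMSO, 18 of 27 writers (66.7%, 46.0 to 83.5) and 7 of 16 erasers (43.8%, 19.7 to 70.1) had an EPZ peak, a difference of 22.9 points (-10.6 to 52.2). Both intervals of the difference span 0. They treat genes as independent draws, which a complete set of named genes with paralogs is not, so they serve as a description and not as a test. In bases, EPZ peaks covered 151.0 kb of writers and 25.8 kb of erasers, and DMSO peaks 413.6 kb and 136.7 kb. The EPZ total was therefore 36.5% of the DMSO total in writers and 18.9% in erasers, beside 26.6% over all protein-coding genes. These totals rest largely on a few wide genes. The 4 H3K36 writers alone gave 69.6 kb of the EPZ and 144.6 kb of the DMSO total of writers. Kdm6a alone gave 9.57 kb and 35.2 kb of those of erasers.

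The median DMSO fold enrichment of marked genes was 5.44 in writers (range 2.75 to 9.45) and 4.01 in erasers (2.66 to 7.97), so the classes overlapped over nearly the whole range and this difference was not tested. The median length under DMSO peaks was 14.3 kb in writers and 4.69 kb in erasers, although eraser genes were longer (median 57.3 kb, against 38.9 kb in writers). Genes were also split at the all-gene median of 4.47, a split chosen after seeing the data. At or above it, 15 of 17 writers (88.2%) and 6 of 7 erasers (85.7%) had an EPZ peak, against 82.0% of all genes in that range, a difference of 2.52 points between the classes. Below it 3 of 10 writers (30.0%) and 1 of 9 erasers (11.1%) did, against 10.2% of all, a difference of 18.9 points. The 3 writers below the median with an EPZ peak were Suv39h1, Kmt5b and Kmt2c, and the eraser was Kdm6a. How much of the difference between the classes rests on the DMSO level was not tested.

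**Figure D3:**
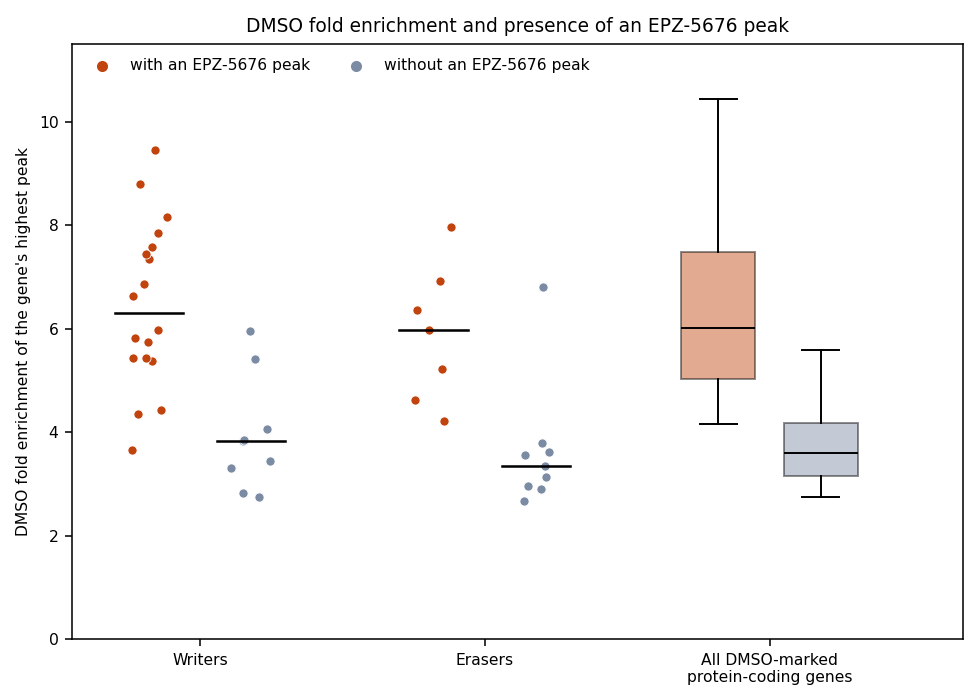
DMSO fold enrichment of each gene's highest peak, for writers and erasers with (red) and without (grey-blue) an EPZ-5676 peak, where each point is a gene and each line a median, beside all DMSO-marked protein-coding genes (box: quartiles, whiskers: 5th to 95th percentile). Writers with an EPZ peak have a median of 6.30 and those without 3.83, and erasers 5.97 and 3.35, beside 6.005 and 3.60 over all genes.

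In the 25 members marked in both lists, the EPZ-covered bases came to a median of 32.5% of the DMSO-covered ones (interquartile range 21.4 to 52.9), close to the 34.4% over all genes marked in both. The median was 39.8% in the 18 writers and 30.2% in the 7 erasers. The 5 highest shares belonged to Setd5, Prmt5, Kdm5c, Setd7 (64.0%) and Nsd2 (58.7%), and the 5 lowest to Kmt2c, Kmt5b, Kdm2a (12.04%), Kdm1a (12.2%) and Kmt5a (15.9%). EPZ peaks were fewer than DMSO peaks in 11 of the 25 genes, equal in number in 9 and more numerous in 5, among them Kmt2a and Kdm6a, where 2 EPZ peaks lay on 1 DMSO peak.

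Among members of known strand, EPZ peaks lay toward the 5′ end of the gene. The other EPZ-marked members were not placed. Among them was Nsd1, on chromosome 13 from 55209782 to 55318325, whose highest EPZ peak, from 55251406 to 55254450, lay away from both ends. Strand was known for 41 of the 52 members, those with a start in the RefSeq promoter table. Of 16 such members marked in EPZ, 13 had an EPZ peak within 1 kb of an annotated start or of the gene's 5′ boundary (81.3%, against 87.5% of all such genes), and of 33 marked in DMSO, 29 had a DMSO peak there (87.9%, against 93.2%). The 3 with an EPZ peak beyond that window were Kmt2c, Kmt5b and Kdm6a, whose EPZ peaks began at 2.70, 2.29 and 2.77 kb. The far edge of EPZ peaks stood a median of 3.56 kb from the 5′ boundary in the 16 members, against 16.02 kb for the far edge of DMSO peaks in the same genes, and it lay nearer the start in all 16. Over all protein-coding genes the medians were 3.75 and 11.2 kb, with the EPZ edge nearer in 2820 of 2830 genes, so this was not particular to the enzyme genes. In Setd2 the EPZ peak ended at 10.7 kb and the last DMSO peak at 63.6 kb. The 4 members without a DMSO peak near a start were Kmt5b, Kdm7a and Kdm8, where DMSO peaks began at 1.68, 2.26 and 1.98 kb, and Kdm2b, where they lay between 90.8 and 98.3 kb from the outermost boundary.

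**Figure D4:**
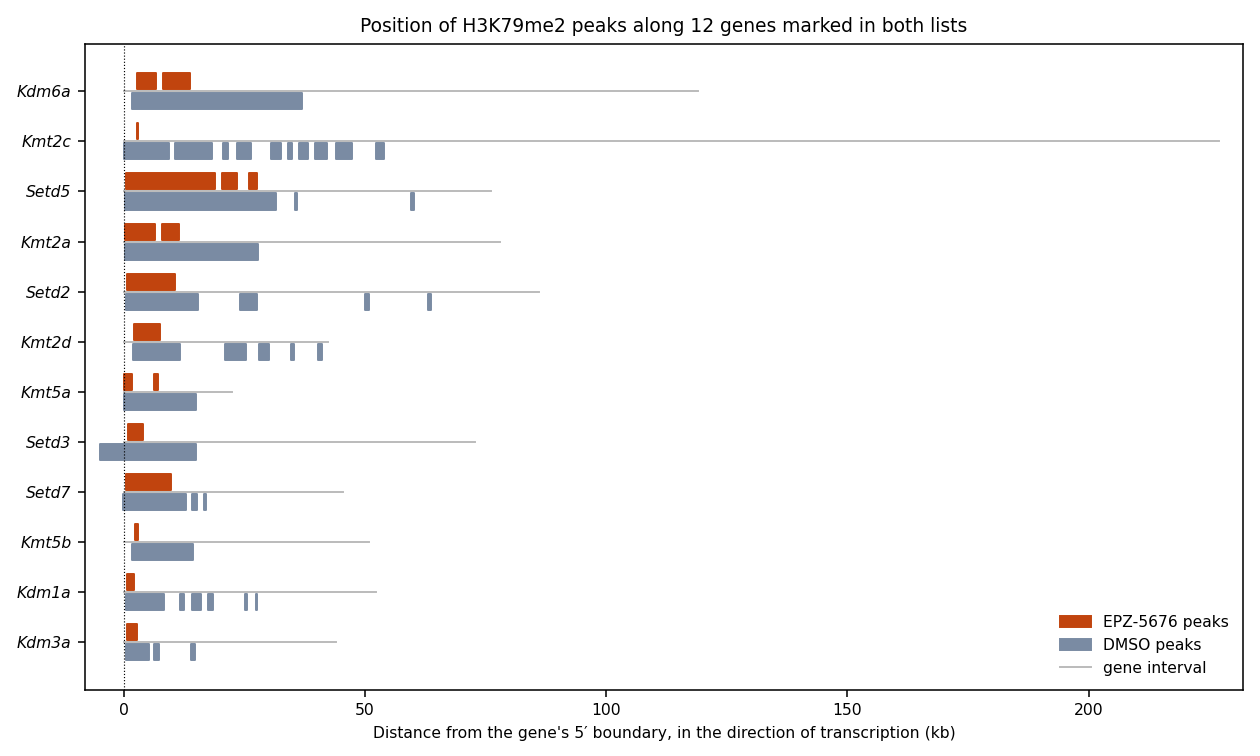
Position of H3K79me2 peaks in the EPZ-5676 (red, above the line) and DMSO (grey-blue, below the line) lists along the 12 genes with most DMSO-covered bases among those marked in both lists and of known strand, as distance from the gene's 5′ boundary (kb), with the grey line as the gene interval. In each gene the EPZ peaks lie over the 5′ part of the DMSO-covered stretch, as in Setd5, where they end at 27.6 kb and the DMSO peaks at 60.3 kb.

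The number of CpG dinucleotides in such promoter windows had a median of 26.5 in member promoters, 22 in promoters of all DMSO-marked genes and 13 in all protein-coding promoters. By peak status the member medians were 24 with an EPZ and a DMSO peak (23 promoters), 25.5 with a DMSO peak only (22) and 28 with none (9, from 17 to 44). The unmarked members thus did not have fewer CpG than the marked ones by this median. Over all protein-coding genes the order was the other way, with a median of 7 in unmarked promoters against 22 in DMSO-marked ones.

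With SGC-0946 no member carried a called peak. Its list marked 0 of 52 members in its 55 peaks (exact 95% interval 0 to 6.85%), against 0.142% of all protein-coding genes, a share so low that 0 of 52 says nothing particular about these genes. The EPZ list, at the same labelled dose and day, marked 25 of the 52. The doses of both compounds carry the same doubtful unit, and the lists' depths are unknown, so the part of depth in this difference was not tested.

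A stricter peak threshold left fewer members marked. With a −log10 q of at least 5, EPZ peaks remained on 10 of 52 members, against 7.68% of all protein-coding genes, and DMSO peaks on 24 of 52, against 17.3%. The 10 in EPZ were the writers Kmt2a, Kmt2d, Kmt2e, Setd1b, Setd5, Nsd2 and Nsd3 and the erasers Kdm2a, Kdm5a and Kdm5c. At that threshold EPZ peaks were on 7 of 17 DMSO-marked writers and 3 of 7 erasers (41.2% and 42.9%), against 44.1% of all protein-coding genes marked in DMSO at that threshold, so the higher share of writers was no longer seen. DMSO peaks were left on all 24 members at or above the all-gene median of DMSO fold and on 0 of 20 below it, the 6 H3K9 writers among them. Over all protein-coding genes they were left on 3698 of 3780 at or above that median and on 87 of 3780 below it. The split was thus general and says nothing particular about the members.

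Related enzymes, partner proteins and the supply of methyl groups were read the same way, with no test between the lists, beside 15.9% (EPZ) and 34.5% (DMSO) of all protein-coding genes. Of 21 methyltransferase and demethylase genes with other names, 8 were marked in EPZ and 16 in DMSO, led in DMSO by Ezh2, the H3K27 methyltransferase, with 16.3 kb in EPZ and 25.5 kb in DMSO (7.96-fold). Jmjd1c, a relative of Kdm3a, had 2.77 kb in EPZ against 59.9 kb in DMSO. Of 24 partner genes, from COMPASS subunits to corepressors, 12 were marked in EPZ and 23 in DMSO. Wdr82, a subunit of the Setd1 complexes, had 12.3 kb in EPZ and 17.5 kb in DMSO (9.95-fold), a higher DMSO value than any member, and the COMPASS-type subunits Hcfc1 (4.86 kb in EPZ), Paxip1 (0.990 kb), Wdr5 (0.502 kb) and Pagr1a (0.335 kb) also had EPZ peaks. Ash2l, Dpy30, Rbbp5, Cxxc1, Men1, Ncoa6 and Bod1l of such complexes had DMSO peaks only. Of 10 genes of the methionine cycle, which supplies the methyl donor S-adenosylmethionine, 5 were marked in EPZ and 9 in DMSO, among them Mat2a, which makes that donor, with 2.95 kb in EPZ and 4.54 kb in DMSO (6.58-fold).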

How the data were processed

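H3K79me2 immunoprecipitates and inputs were sequenced, and the peaks were called by the authors. The submitters' processing notes name mm10 (GRCm38) and sacCer3 as builds, with MACS2 2.2.7.1, BWA 0.7.17-r1188 and Picard as tools. How the 2 replicates were combined, how inputs and yeast reads entered and which thresholds applied is not given in the sources used here, so every list is treated as pooled. The deposited fold enrichment is the authors' ratio over background, averaged over a peak. The −log10 q of each peak was also computed by the authors. The other 2 value columns were not used.

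Peaks were intersected with 21896 protein-coding intervals of a RefSeq table on GRCm38 (1 shared base, Python 3.11.15, pandas 2.3.3). Overlap counting was tested on simulated data. Shares have exact (Clopper-Pearson) 95% intervals from scipy 1.17.1, and intervals of differences combine them (Newcombe's way of combining limits); they cover counting of genes only. Strand came from the RefSeq promoter table. Exons and introns were not analysed here. Genes to be named with values by rule were the 10 highest and 5 lowest by DMSO fold and the 5 highest by EPZ fold. The rule also took the 5 with most and 5 with fewest EPZ bases as a percent of DMSO bases, and the 3 highest by DMSO fold without an EPZ peak. Other members marked in DMSO are also given with values, under their family, and unmarked members by status only. Members and lists were chosen with earlier results of these data known. Alternatives were a −log10 q of at least 5, 500 bases in the gene, each peak given to 1 gene, a 1 kb start window, narrower membership and EPZ cover of at least 50% of DMSO bases.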

Additional observations from a re-analysis of the deposited data

How the results depend on the processing

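No paired analysis was possible because each treatment has 1 deposited list and no value per replicate, and for the same reason no replicate could be left out. Of the 8 main results, the count of 0 members with an SGC peak held under all 6 settings run for it. Requiring a −log10 q of at least 5 lowered the members with an EPZ peak to 10 and with a DMSO peak to 24, raised the median EPZ share of DMSO bases to 49.8%, and lowered the related enzyme, partner and methionine cycle genes marked in both lists to 10, against 25. It also turned the difference of writers minus erasers to -1.68 points for EPZ peaks among DMSO-marked genes and to 12.6 points for DMSO peaks. This DMSO difference also turned, to 3.11 points without Prmt genes and to 12.5 points with a peak required within 1 kb of the start. That window gave 13 members with an EPZ peak and 29 with a DMSO peak, by construction among the 41 members with a known start. When EPZ peaks had to cover at least 50% of the DMSO bases, 18.2% of DMSO-marked members passed. Among members at or above the all-gene median of DMSO fold, a split chosen after seeing the data, 87.5% had an EPZ peak, and writers minus erasers was 2.52 points; below it 20% had one, and the difference was 18.9 points. Why these values moved was not tested. Giving each peak to 1 gene changed the DMSO value of Setd1b and Kdm4d and left Setdb2 unmarked. Depth per library is unknown, so a gene without a peak is a gene where none was called.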
